A study of Rattus norvegicus with 2 samples.

Results

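The 35 genes described here are widely used markers of leukocytes. They were chosen by name, as genes of all leukocytes, of macrophages and other myeloid cells, of lymphocytes and of the phagocyte oxidase. Earlier results of these data were known when they were chosen. All 35 had a probe set with that single gene symbol, out of 22093 genes measured in this way, and a gene with more than 1 probe set was represented by the brightest of them on average. Expression was measured in urinary bladders of male F344 rats, an inbred strain, on 2 arrays. The Control array held RNA pooled from the bladders of 5 rats given 0 ppm dimethylarsinic acid (DMA), a methylated arsenic metabolite, and labelled as epithelium. The DMA-tumor array held RNA pooled from 6 bladder carcinomas of rats given 200 ppm DMA. DMA was given in the drinking water for 2 years, starting when the rats were 10 weeks old. The planned end was thus at 114 weeks of age in both groups. Per the study's methods, rats that became moribund earlier were also killed, and whether the pools include any is not stated. The labels name no genetic change and no second agent. The study's methods speak of fewer tumors, took them to be urothelial carcinomas by size without histology, and call the controls bladder tissue. Each group was 1 array, so the differences given here carry neither a replicate error nor a p-value.

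Leukocytes reside in the bladder wall and enter it during inflammation and tumor growth. Macrophages depend on the receptor encoded by Csf1r for survival, take up debris through scavenger and lectin receptors, and produce the C1q chains that start the classical complement pathway. T cells carry the CD3 complex, B cells carry CD79 and CD20, and phagocytes kill microbes with an NADPH oxidase that assembles at the membrane. In the rat, CD4 is found on macrophages as well as on helper T cells.

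Most of these genes had a lower signal in the tumors. Of the 35 genes, 32 had a lower signal in the DMA-tumor array than in the Control array and 3 had a higher one. Over all 22093 genes, 57.8% had a lower signal in the tumors. The helper T cell and rat macrophage gene Cd4 was 12.01-fold lower, the CD3 chain gene Cd3g 5.56-fold lower and the leukocyte lysosomal gene Laptm5 4.55-fold lower. The 3 with a positive difference were the lipopolysaccharide co-receptor gene Cd14 (2.04-fold higher), Cd68, and Ms4a1, which was under 100 on both arrays. In bulk tissue, fewer cells of a type and less RNA per cell cannot be told apart.

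Signals under 100 were treated as low in the study's methods, and a gene is called detected here where its signal reached 100 on either array. Of the 35 genes, 20 were detected and 15 were under 100 on both arrays. Of the 20, 14 reached 100 on both arrays, 6 only on the Control array and 0 only on the DMA-tumor array. The 6 that passed only through the Control array had to be lower in the tumors. Among the 20 detected genes, 9 were lower by 2-fold or more, against 10.5% of all 12074 detected genes. By the same ratio 1 was higher, against 8.87% of those genes. After quantile normalization, which moved all genes, 12 of the 20 were lower and 0 higher, against 16.4% and 6.44% of all detected genes. The median log2 difference (DMA-tumor minus Control) of the 20 was -0.94, and that of all detected genes was -0.08. By the criteria in the study's methods, which add a Z-score of at least 2 or at most -2 to the ratio, 3 of the 20 were lower (background 2.37%) and 0 were higher (background 2.53%). The 3 were Cd4, Cd3g and Laptm5, called here and not taken from the study's own lists. With no limit on signal, the median over all 35 genes was -0.56 and that over all 22093 genes was -0.07.

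**Figure D1:**
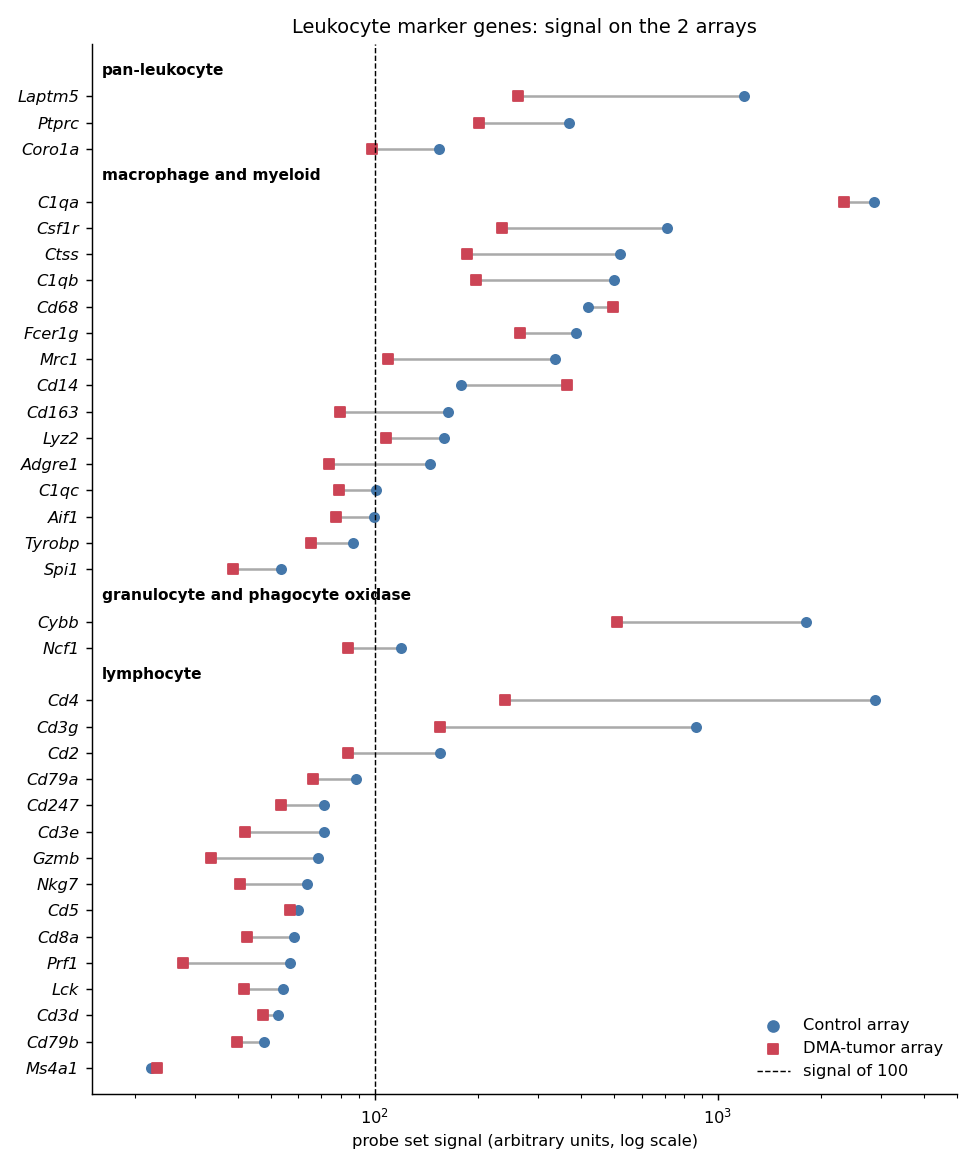
Probe set signal (horizontal log axis, arbitrary units) of each of the 35 genes on the Control array (circles) and the DMA-tumor array (squares), grouped by role, 1 array per group and no error bars. The square lies left of the circle for 32 genes, and the dashed line marks a signal of 100; probe sets bind with different strength, so rows are not to be compared with each other by level.

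Among the genes of all leukocytes, each had a lower signal in the tumors. Ptprc, which encodes the leukocyte common antigen CD45, gave 369 on Control and 201 on DMA-tumor, a log2 difference of -0.87. It was short of a 2-fold difference, except after quantile normalization (-1.16). For the genes that follow, the Control signal is given first and the DMA-tumor signal second. Laptm5, a lysosomal membrane protein that limits antigen receptor signalling, had signals of 1194 and 262 (log2 difference -2.19), and it no longer met the Z-score criterion after removal of a loess trend on signal. Coro1a, an actin regulator of leukocytes, had signals of 155 and 98.0, at least 1.55-fold lower when the value under 100 is raised to 100. The paper lists Coro1a among the genes both hypermethylated and downregulated in the tumors, and here it was short of 2-fold.

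The macrophage genes ranged from 3.07-fold lower to 2.04-fold higher. Csf1r, the receptor for the macrophage growth factor CSF-1, had signals of 714 and 235 (3.04-fold lower). The mannose receptor gene Mrc1, a marker of resident and repair-type macrophages, had signals of 335 and 109 (3.07-fold lower). Ctss, a lysosomal protease of antigen-presenting cells, had signals of 519 and 187 (2.78-fold lower). These 3 lay in a narrow range of log2 differences, from -1.62 to -1.48. The haemoglobin scavenger receptor gene Cd163, the antigen known as ED2 in the rat, had signals of 163 and 79.0. The rat homologue of the mouse F4/80 gene, Adgre1, had signals of 145 and 73.4. Both passed below 100 in the tumors. With these values raised to 100, Cd163 was at least 1.63-fold lower (log2 difference -1.05 as measured) and Adgre1 at least 1.45-fold lower (-0.98 as measured). Lyz2, the lysozyme of phagocytes, had signals of 160 and 108, a log2 difference of -0.56.

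Cd14 and Cd68 went the other way. Cd14 had signals of 178 and 365, a log2 difference of 1.03. Cd68, a lysosomal glycoprotein and the antigen known as ED1 in the rat, had signals of 419 and 496, a log2 difference of 0.24. Among the 12 detected macrophage and myeloid genes, 10 had a negative and these 2 a positive difference, with a median of -0.77. Over all detected genes 55.6% had a negative difference. The call of Cd14 as 2-fold higher was lost when the arrays were centred on their medians, when a loess trend on signal was removed and after quantile normalization, with its lowest log2 difference over all settings at 0.73.

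The C1q chains are made together into 1 protein, and their genes lie side by side on chromosome 5. C1qb had signals of 499 and 198 (2.52-fold lower). C1qa had signals of 2849 and 2342, a log2 difference of -0.28. C1qc had signals of 101 and 78.7, a log2 difference of -0.36 that stands at the signal limit. Of the 3 chains only C1qb was lower by 2-fold, and whether the chains differ from each other could not be tested with 1 array a group.

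Adaptors and the lineage factor of myeloid cells had weak signals or small differences. Fcer1g, the signalling chain of Fc receptors in macrophages, NK cells and mast cells, had signals of 387 and 265 (log2 difference -0.55). Tyrobp, which encodes the adaptor DAP12, had signals of 86.6 and 65.4. Aif1, a calcium-binding protein of macrophages also called Iba1, had signals of 99.6 and 77.1. Spi1, the gene of the transcription factor PU.1 that directs myeloid development, had signals of 53.4 and 38.8. The last 3 were under 100 on both arrays and therefore count as low throughout.

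The phagocyte oxidase was represented by its catalytic membrane subunit gene Cybb (gp91phox) and the cytosolic subunit gene Ncf1 (p47phox). Cybb had signals of 1811 and 509, 3.56-fold lower. Ncf1 had signals of 120 and 83.8, at least 1.20-fold lower. Of the other oxidase genes, Cyba, the membrane partner of gp91phox that many cell types express, had signals of 2884 and 3407 (log2 difference 0.24). The small GTPase gene Rac2 had signals of 146 and 88.7, and Ncf4 was under 100 on both arrays.

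**Figure D2:**
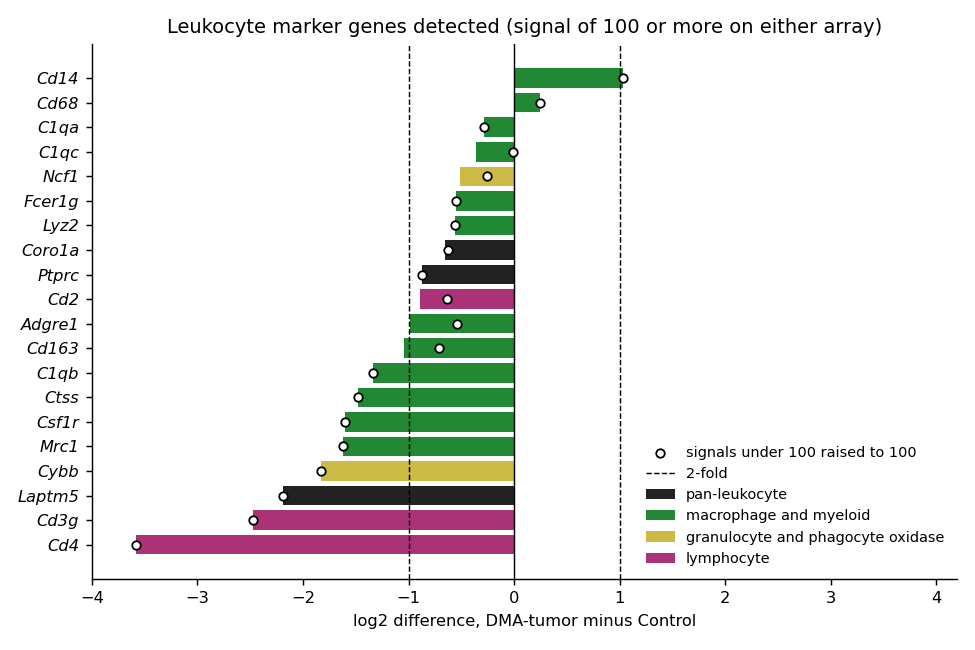
Log2 difference, DMA-tumor minus Control (horizontal axis), of the 20 detected genes, as bars coloured by role, with no error bars since each group is 1 array. Open points give the difference with signals under 100 raised to 100, and the dashed lines mark 2-fold; 18 bars point to lower signals in the tumors, and Cd14 and Cd68 point the other way.

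Among lymphocyte genes, Cd4 and Cd3g stood out from their partners. Cd4 had signals of 2875 and 239, a log2 difference of -3.59. Cd3g, the gamma chain of the CD3 complex, had signals of 864 and 156 (log2 difference -2.47). The other chains of the complex were under 100 on both arrays. Cd3d had signals of 52.3 and 47.2, Cd3e of 71.1 and 41.8, and Cd247, the zeta chain, of 71.3 and 53.4. These chains assemble into 1 surface receptor in T cells, and among the genes of the complex Cd3g alone reached 100 on either array. Probe sets differ in how strongly they bind, and why Cd3g departs from its partners was not tested. The RefSeq starts of Cd3d and Cd3g lie 1601 bases apart on chromosome 8 and the genes are read in opposite directions.

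The remaining lymphocyte genes were near or under the limit. The adhesion receptor gene Cd2 of T and NK cells had signals of 155 and 83.8, at least 1.55-fold lower. The T cell genes Cd8a (cytotoxic co-receptor), Cd5 (inhibitory receptor) and Lck (kinase of the T cell receptor) were under 100 on both arrays. So were the cytotoxic granule genes Nkg7, Gzmb and Prf1. The B cell genes Cd79a, Cd79b and Ms4a1 (CD20) were also under 100 on both arrays. Across these 12 low lymphocyte genes, Cd3d, Cd3e and Cd247 included, signals ran from 22.3 to 88.0. Of the 12, 11 had a lower value in the tumors, with log2 differences from -1.03 to 0.06 and a median of -0.41. For comparison, 60.4% of all 10019 genes under 100 on both arrays had a lower value in the tumors. Their median log2 difference was -0.06, and the central 95% ran from -0.71 to 0.62. Gzmb and Prf1, the genes of granzyme B and perforin, had signals of 68.4 and 33.4 and of 56.8 and 27.7, all below the limit at which a difference is read here.

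**Figure D3:**
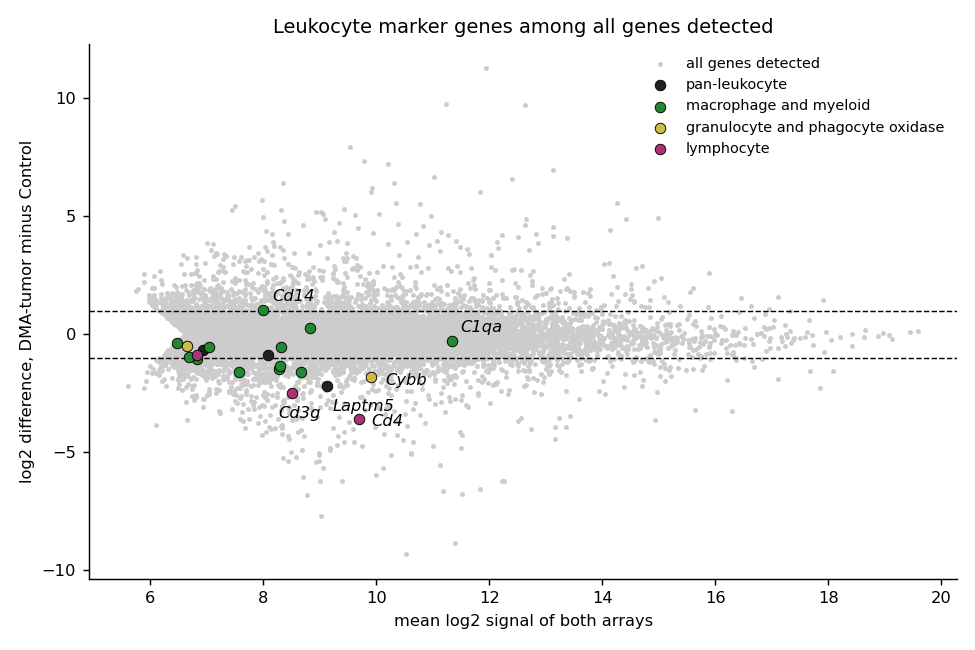
Log2 difference, DMA-tumor minus Control (vertical axis), against the mean log2 signal of both arrays (horizontal axis) for all 12074 detected genes (grey) and for the 20 leukocyte genes among them (coloured by role). Dashed lines mark 2-fold; Cd4 lies lowest among the 20 at -3.59, and Cd14 highest at 1.03.

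Further genes of macrophages and of leukocyte signalling were also mostly lower among those detected, and their counts are to be read beside the background shares of 10.5% lower and 8.87% higher. Of 37 other macrophage genes with a probe set, 24 were detected. Of these 24, 9 were lower and 1 was higher by 2-fold or more, with a median log2 difference of -0.94. Of these 9, 5 reached 100 only on the Control array and so had to be lower, and 8 were left with low values raised to 100. The co-stimulatory ligand gene Cd86 had signals of 1404 and 120 (11.7-fold lower), and the monocyte chemokine receptor gene Ccr2 had signals of 1012 and 148 (6.84-fold lower). F13a1, a coagulation factor subunit that macrophages make, had signals of 260 and 71.0, at least 2.60-fold lower. The folate receptor gene Folr2 had signals of 208 and 80.9, at least 2.08-fold lower. The 1 gene higher was Gpnmb, a lysosomal glycoprotein also made by other cells, with signals of 8348 and 18124 (log2 difference 1.12), named after its value was seen. Of 38 genes of leukocyte signalling and adhesion, 31 were detected, 11 were lower and 1 was higher by 2-fold or more, and the median was -0.64. Of the 11, 3 reached 100 only on the Control array, and 9 were left with low values raised to 100. The 1 gene higher was Arhgdib, with signals of 991 and 2964 (log2 difference 1.58), named after its value was seen. The lymphoid transcription factor gene Ikzf3 was 6.70-fold lower, with signals of 5058 and 754. Most lymphocyte genes described above were under 100 on both arrays, and which cells gave the Ikzf3 signal was not tested. The adhesion ligand gene Cd48 was 4.54-fold lower, with signals of 1383 and 305. The interleukin-10 receptor gene Il10ra, with signals of 339 and 65.0, was at least 3.39-fold lower, and the integrin adaptor gene Apbb1ip, with signals of 529 and 131, was 4.04-fold lower.

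Other lymphocyte and granulocyte genes were mostly under 100. Of 23 further T cell genes, 17 were under 100 on both arrays. Of the 6 others, 5 had a negative and 1 a positive difference. The interleukin-2 receptor gene Il2rb (107 and 35.6) was lower by more than 2-fold in measured signal. With the tumor value raised to 100 it was at least 1.07-fold lower. Il7r had signals of 271 and 144, and Cd96 of 102 and 58.8. Bcl11b (70.6 and 119) reached 100 only on the DMA-tumor array and so had to be higher. With low values raised to 100, 0 of the 6 were lower by 2-fold. Of 13 further NK and cytotoxic genes, 11 were under 100 on both arrays, and the killer cell receptor gene Klrk1 had signals of 143 and 57.4. Of 13 further B and plasma cell genes, 12 were under 100 on both arrays. The other 1, the adaptor gene Blnk, was 4.39-fold lower, with signals of 474 and 108, and which cells gave its signal was not tested. Of 20 further granulocyte genes, 19 were under 100 on both arrays, S100a8, S100a9, Mpo and Csf3r included, and Padi4, a histone-modifying enzyme of neutrophils, had signals of 79.0 and 143.

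Markers of other cells moved on these arrays too, and their part in the values above was not tested. Of all 12074 detected genes, 2.37% were lower and 2.53% higher by both criteria, and 10.5% were lower and 8.87% higher by the ratio alone. Of 10 fibroblast genes, 9 met both criteria as lower, the median log2 difference was -6.10, and the summed signals were 160303 on Control and 1865 on DMA-tumor. Of 7 detected smooth muscle genes, 6 were lower by both criteria, with summed signals of 55835 and 4332 over 8 genes. The Control array, labelled as epithelium, carried signals of most of these connective tissue and muscle genes that were much lower on the tumor array. Pdgfrb (216 and 172) and Synm (102 and 95.6) differed little, and Acta2 still had 3292 on DMA-tumor. Of 8 urothelial genes, 7 were lower by 2-fold or more and 4 of these by both criteria (summed signals 2034110 and 666869). Of 8 detected endothelial genes, 1 was lower and 3 were higher by 2-fold or more (median -0.02, summed signals 3327 and 3733), and by both criteria 1 was lower and 0 were higher. Mast cells are leukocytes that also express Ptprc and Fcer1g. Of 5 detected mast cell genes, 3 were higher by both criteria. Of these 3, 2 reached 100 only on the DMA-tumor array and so had to be higher. The carboxypeptidase gene Cpa3 had signals of 84.6 and 520. The summed signal of 8 mast cell genes was 8546 and 6626, most of it from Gata2, which other bladder cells express too. Ms4a2 and Fcer1a, which encode mast cell chains of the IgE receptor, were under 100 on both arrays.

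**Figure D4:**
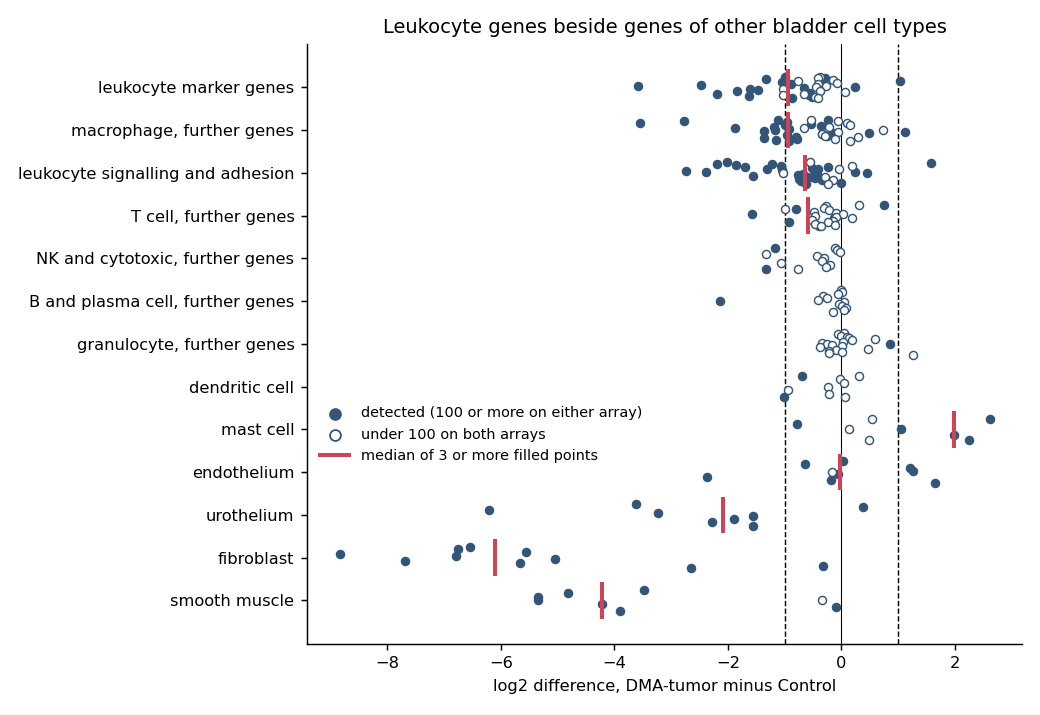
Log2 difference, DMA-tumor minus Control (horizontal axis), of single genes in the leukocyte marker list, further leukocyte lists and lists of other bladder cell types. Filled points are detected genes, open points were under 100 on both, dashed lines mark 2-fold, and red bars give the median of lists with 3 or more filled points; fibroblast genes have a median of -6.10, leukocyte marker genes of -0.94 and mast cell genes of 1.99. Of the filled points, 6 of 20 leukocyte marker genes reached 100 only on Control and 3 of 5 mast cell genes only on DMA-tumor. With open points included, these 2 medians are -0.56 and 0.80.

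The promoters of these genes were examined for a feature that the choice of genes did not use. PU.1, the product of Spi1, binds DNA at a purine-rich core, and the letters GAGGAA were searched on both strands, the other strand reading TTCCTC. RefSeq promoters of the GRCr8 build, each with 250 bases before and 50 after the gene start, were given for 27 of the 35 genes. The core was present in 27.6% of all 33469 promoters in the table. It was present in 15 of the 27 leukocyte genes, in 4 of 12 lymphocyte genes and in 11 of the 15 others. Of the 10 macrophage and myeloid genes with a promoter, 8 held it, Cd163 and C1qa being the exceptions. The Cd3g and Cd3d windows held none. The promoters of the genes with a difference of 2-fold or more that held a core within 120 bases before the start are printed here, 5′ to 3′ on the gene's strand, ending at the base before the start. Capitals mark the core. They include the lower genes Laptm5, Csf1r, Mrc1, Ctss, C1qb and Cybb and the higher gene Cd14.
Laptm5, chr5:148371760-148371879, plus strand: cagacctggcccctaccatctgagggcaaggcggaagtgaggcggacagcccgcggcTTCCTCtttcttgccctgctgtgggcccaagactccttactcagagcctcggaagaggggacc
Csf1r, chr18:56834259-56834378, plus strand: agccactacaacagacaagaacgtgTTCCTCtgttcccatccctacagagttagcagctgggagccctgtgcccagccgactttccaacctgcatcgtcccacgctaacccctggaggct
Cd14, chr18:28611159-28611278, minus strand: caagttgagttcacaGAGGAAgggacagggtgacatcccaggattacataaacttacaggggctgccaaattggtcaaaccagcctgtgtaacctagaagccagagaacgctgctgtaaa
Mrc1, chr17:82157605-82157724, plus strand: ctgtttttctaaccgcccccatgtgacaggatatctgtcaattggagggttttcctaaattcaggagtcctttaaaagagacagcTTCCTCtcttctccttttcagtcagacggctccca
Ctss, chr2:185775276-185775395, plus strand: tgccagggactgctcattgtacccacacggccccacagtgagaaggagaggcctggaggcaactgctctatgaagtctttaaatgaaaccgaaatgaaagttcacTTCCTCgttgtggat
C1qb, chr5:154407828-154407947, minus strand: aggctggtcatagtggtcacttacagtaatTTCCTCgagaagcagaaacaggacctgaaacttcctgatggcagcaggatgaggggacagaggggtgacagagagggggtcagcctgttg
Cybb, chrX:16065066-16065185, minus strand: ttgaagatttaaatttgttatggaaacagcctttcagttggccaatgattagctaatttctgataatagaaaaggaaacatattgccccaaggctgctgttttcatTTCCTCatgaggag

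The core lay 14 bases before the start in Cybb, 15 in Ctss, 35 in Mrc1, 63 in Laptm5, 90 in C1qb, 95 in Csf1r and 105 in Cd14, counted to its first base. A core in this 120-base stretch was found in 11 of the 27 leukocyte genes with a promoter and in 11.7% of all promoters. The windows of Cd163 and Cd3g, which were also lower by 2-fold or more, held none in it. No promoter was given for Cd4, which was lower by that ratio too. The core occurred in the gene that was higher as well as in those that were lower, and a match of letters is not a measured binding site.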

How the data were processed

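RNA of pooled rat bladders was measured on 2 arrays, 1 per group. Per the labels, TRIzol was used for total RNA and a WT PLUS kit for biotin labelling. RMA and Affymetrix Expression Console 1.4.1 appear in the submitters' processing notes. In contrast, the study's methods give another array type and a global median normalization, so which normalization the authors applied is not settled. The authors deposited a linear intensity for each probe set, between 5.60 and 820532, with medians of 50.6 and 52.3. Their log2 was taken with no further normalization. Precision is limited by the number of arrays.

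Of 68842 probe sets, 23446 had 1 gene symbol in the platform annotation, 505 had several and 44891 had none listed. Only the first were used, which gave 22093 genes, and genes under 100 on both arrays were left out of calls. A call by both criteria needed a ratio of 2 or more with a Z-score of 2 or more, or a ratio of 0.5 or less with a Z-score of -2 or less. The Z-score was taken over the 12074 genes left, whose differences had a standard deviation of 1.02. No test was possible with 1 array per group. Where a fold was taken against a signal under 100, that signal was set to 100 and the fold given as a bound, while calls, counts and log2 differences use the measured signals unless raised values are named. All 35 genes are named, and of each further list up to 4 detected genes with the largest absolute difference were eligible. Gpnmb, Arhgdib, Acta2, Pdgfrb, Synm, Csf1, Il34, Ncf4, Gata2, Ms4a2, Fcer1a, S100a8, S100a9, Mpo and Csf3r were named outside this rule, after their values were seen. The genes and lists were chosen with earlier results of these data known. Protein motifs that had been planned were not examined here. Columns of other series numbered 0. The calling step was tested on simulated data. Alternatives were other signal limits, centring, loess (span 0.3), quantile normalization, a mean over probe sets, a floor of 100 for low values, a ratio of 1.5 and Z-scores within 20 signal bins. Normalization alternatives kept the same 12074 genes. The software was pandas 2.3.3, numpy 2.4.6, matplotlib 3.10.9 and statsmodels 0.14.6 under Python 3.11.15.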

Additional observations from a re-analysis of the deposited data

How the results depend on the processing

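Each of the 20 detected genes had the same sign in all settings that gave it a value, 173 values under alternatives in all. The signal limits, the mean of probe sets and the floor of 100 could not reverse a sign. Only centring, loess and quantile normalization could have reversed one. The 9 genes lower by 2-fold or more were all lower by that ratio with no limit on signal (11 genes), with a limit of 32 (11), with a limit on the mean (9), with arrays centred on their medians (10), with the loess trend removed (11), after quantile normalization (12) and with the mean of probe sets (9). Having no limit or a limit of 32 could not remove any of the 9. The mean of probe sets could not either, since each of the 9 had a single probe set. Of the 9, 8 were left when 100 had to be reached on both arrays and with low values raised to 100, Cd163 being the one lost. With a ratio of 1.5, 13 were lower. The gene higher by 2-fold, Cd14, left 0 genes higher with centring, loess and quantile normalization. Of the 3 genes lower by both criteria, Laptm5 was lost with the loess trend removed, which left 2, and Cybb joined with no limit on signal and with a limit of 32, which gave 4. The median log2 difference of -0.94 became -0.56 with no limit, -0.61 with a limit of 32, -0.98 with a limit on the mean, -1.41 with 100 required on both arrays, -0.98 with centring, -1.06 with loess, -1.20 after quantile normalization and -0.67 with low values raised to 100. The cause was not tested, but the number of genes entering the median ran from 14 to 35 with the signal limit. Under quantile normalization the median of all genes kept was -0.34 and under loess -0.19, so part of those shifts is shared by all genes. No paired analysis was possible because each group had 1 array, and for the same reason no replicate could be left out.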

Other observations

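The genes of growth factors for leukocytes were measured in the same tissue. Kitlg, the ligand of the mast cell receptor KIT, had signals of 4492 on Control and 14995 on DMA-tumor, 3.34-fold higher. Il15, a growth factor of NK and memory T cells, gave 72.2 and 146, which with the Control value raised to 100 is 1.46-fold higher as a lower bound, and Il7, a growth factor of lymphocytes, had signals of 59.8 and 106. Csf1, the ligand of the receptor encoded by Csf1r, had signals of 218 and 159 (log2 difference -0.45), while its other ligand gene, Il34, was under 100 on both arrays. The B cell survival factor gene Tnfsf13b had signals of 116 and 62.9. Of 11 such genes with a probe set, 5 were detected. Of these, 2 were higher and 0 lower by 2-fold or more in measured signal, against 8.87% and 10.5% of all detected genes. Il15 and Il7 reached 100 only on the DMA-tumor array and so had to be higher. Tnfsf13b reached it only on the Control array and so had to be lower. With low values raised to 100, 1 was higher, namely Kitlg.

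Of 9 dendritic cell genes, 7 were under 100 on both arrays. The receptor gene Flt3 had signals of 106 and 52.7, and the transcription factor gene Batf3 had signals of 285 and 177. Of 5 erythrocyte genes, 0 differed by 2-fold, and Hba-a1, a gene of alpha globin, had signals of 99913 and 88507.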
